A study of Homo sapiens with 4 samples.

Results

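RNA polymerase II (Pol II) occupancy is described here at 10 genes that govern entry into S phase. They are 5 E2F transcription factor genes (E2F1, E2F2, E2F3, E2F7 and E2F8), the cyclin E genes CCNE1 and CCNE2, the cyclin D1 gene CCND1, the kinase gene CDK6 and the retinoblastoma gene RB1. The genes were chosen by name, as 10 of 19974 protein-coding genes in the RefSeq table of chromosomes 1 to 22 and X (GRCh38.p14). Each region ran from 5000 bp before the start of a gene to 5000 bp after its end. Peaks that touched the region were taken from both deposited lists, which gave 40 of the 36345 peaks of the control and 28 of the 26387 of the knockdown.

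The cells were U2OS, a human osteosarcoma line, transfected for 48 h with a control siRNA (the group NC) or with an siRNA against NKAP, a nuclear protein known to bind RNA and to act as a corepressor. The 4 samples were 1 Pol II chromatin immunoprecipitation (ChIP) library and 1 input library, made without antibody, for each siRNA, and the lists of the 2 ChIP libraries were used. With 1 ChIP library a group, no difference below has a replicate check and none was tested. Peak lists do not measure the amount of NKAP RNA, so the knockdown itself was not checked. By an estimate from the caller's background, sequencing of the knockdown ChIP was 0.857 times as deep as that of the control. The estimate assumes that the lowest background in each list is the genome-wide background of its ChIP library. Every depth-scaled value below rests on this estimate. Numbers of peaks and covered lengths are not scaled for depth.

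In the G1 phase, D-type cyclins with CDK4 and CDK6 phosphorylate RB1, which otherwise binds and represses the activating E2F factors. Freed E2F factors switch on cyclin E and the genes of DNA replication, and cyclin E with CDK2 phosphorylates RB1 further. E2F7 and E2F8 are atypical E2F factors that later turn the same genes down. Several E2F and cyclin E genes are themselves known E2F targets.

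The promoters of 3 of the E2F genes are shown because they hold the E2F consensus, and that of CCNE1 because its Pol II peak had the highest knockdown to control ratio of the set. Each sequence is the 250 bases before the annotated start in the RefSeq promoter table (GRCh38.p14), written on the strand of the gene. Capitals in the E2F promoters mark the E2F consensus on either strand (as its reverse complement where it lies on the opposite one), searched as TTTCCCGC, TTTCGCGC, TTTGCCGC and TTTGGCGC. Capitals in CCNE1 mark the GC box GGGCGG on either strand. The windows are chr20:33686386-33686635 (minus strand) for E2F1, chr1:23531234-23531483 (minus) for E2F2, chr6:20401629-20401878 (plus) for E2F3 and chr19:29811741-29811990 (plus) for CCNE1.
E2F1: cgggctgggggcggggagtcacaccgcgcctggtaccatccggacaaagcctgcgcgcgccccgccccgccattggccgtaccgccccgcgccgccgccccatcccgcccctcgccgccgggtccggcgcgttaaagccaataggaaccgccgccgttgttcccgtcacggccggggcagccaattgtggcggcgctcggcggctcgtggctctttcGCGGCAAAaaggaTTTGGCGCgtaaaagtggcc
E2F2: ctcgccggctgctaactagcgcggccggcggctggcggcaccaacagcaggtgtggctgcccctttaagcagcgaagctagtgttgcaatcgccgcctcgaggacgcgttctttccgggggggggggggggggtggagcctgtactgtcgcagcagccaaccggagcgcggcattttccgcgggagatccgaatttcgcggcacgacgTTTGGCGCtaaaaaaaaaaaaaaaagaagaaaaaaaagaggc
E2F3: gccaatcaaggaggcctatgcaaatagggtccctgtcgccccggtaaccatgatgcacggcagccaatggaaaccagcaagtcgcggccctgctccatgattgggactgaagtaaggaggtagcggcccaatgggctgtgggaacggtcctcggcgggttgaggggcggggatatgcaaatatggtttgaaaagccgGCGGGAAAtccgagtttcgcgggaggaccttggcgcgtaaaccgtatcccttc
CCNE1: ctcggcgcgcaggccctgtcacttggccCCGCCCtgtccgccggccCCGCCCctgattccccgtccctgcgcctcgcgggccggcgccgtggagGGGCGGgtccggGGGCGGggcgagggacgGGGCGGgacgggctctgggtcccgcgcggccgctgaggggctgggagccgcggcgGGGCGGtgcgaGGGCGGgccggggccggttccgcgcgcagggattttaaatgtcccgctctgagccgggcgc

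Entries in the promoter table were found for 7 of the 10 genes, and E2F8, CCNE2 and CCND1 had none. The entry for RB1 is at an internal start, with no peak. Of these 7, the E2F consensus lay in E2F1, E2F2 and E2F3, within 300 bases that include 50 after the start, against 3.33% of all 34961 promoters of that length. E2F1 held it at -33 to -26 and at -20 to -13 from the start, E2F2 at -42 to -35 and E2F3 at -53 to -46. The matches were TTTGCCGC (opposite strand) and TTTGGCGC in E2F1, TTTGGCGC in E2F2 and TTTCCCGC (opposite strand) in E2F3. The GC box lay in 5 of the 7 genes, against 45.0% of all promoters, and CCNE1 held 7 copies in the window shown. The 7 genes had 9 entries, and a gene counted if any of its entries held the motif. Both shares are of promoters, not of genes. A match describes these letters only, and the lists hold no measure of E2F binding.

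All 10 genes carried a Pol II peak at the start in the control list, and 8 did in the knockdown list. A start peak is one that comes within 1000 bp of the annotated gene start, or of either gene end for E2F8, CCNE2 and CCND1, for which the tables give no strand. Among all protein-coding genes, 57.7% had a control start peak and 54.6% a knockdown one. The genes without a knockdown start peak were E2F2 and E2F8, which had no knockdown peak anywhere in their regions either. Of all genes with a control start peak, 7.78% had none in the knockdown list, and of those with any control peak in the region 7.62% had none. The reverse, a peak in the knockdown list alone, was seen in none of the 10 genes and in 2.59% (start) and 2.62% (region) of all genes with a knockdown peak. A gene with no listed peak can still hold Pol II below the authors' threshold, where the lists end at a −log10 q of 3.01 (control) and 3.02 (knockdown).

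**Figure D1:**
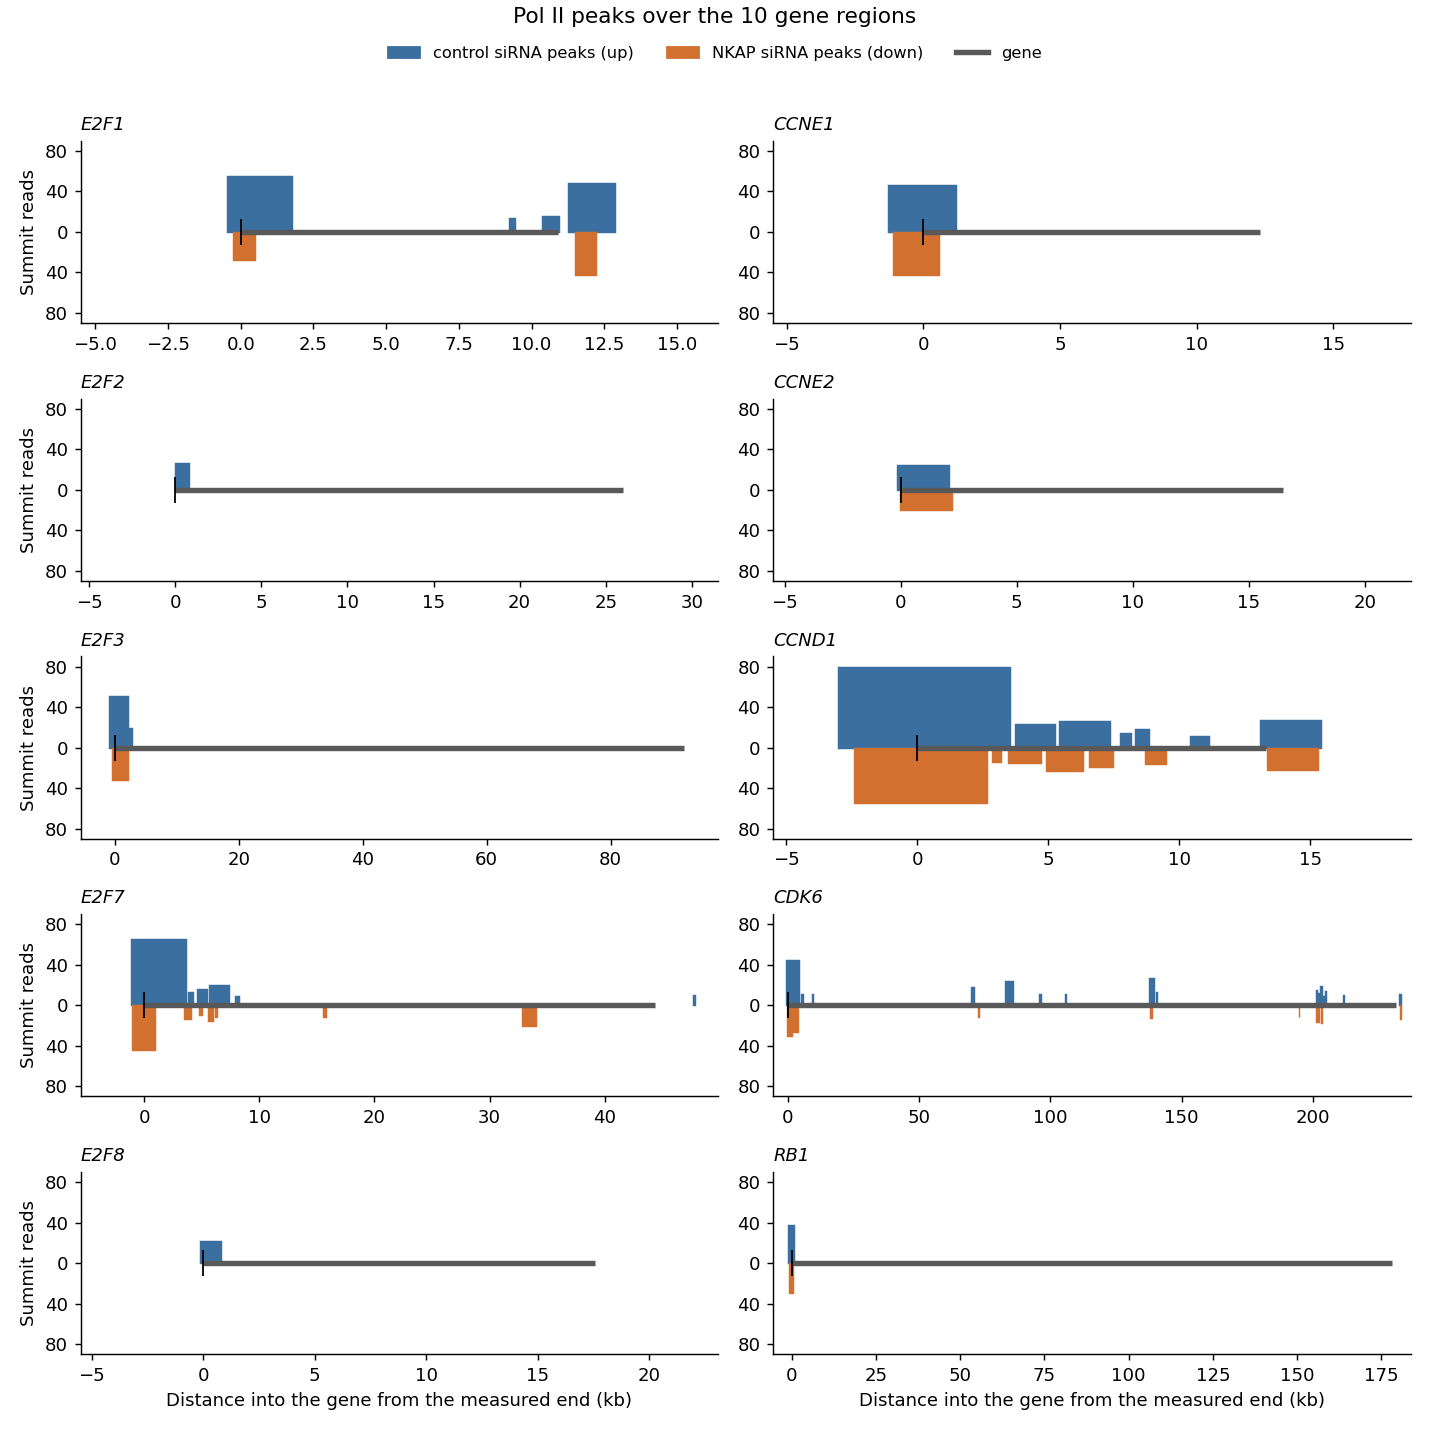
Peaks of the control list (blue, upward) and of the knockdown list (orange, downward) over each gene (grey bar), with distance in kb into the gene from the gene end at which the start peak was measured (tick) on the x axis. Box width is peak width and box height is the number of reads at the summit, not scaled for depth; E2F2 and E2F8 have no orange box, and E2F7 has an orange box 33513 bp into the gene with no blue one.

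Among the activating E2F genes, E2F1 (chromosome 20, 33675477 to 33686385, minus strand) had 55 reads at the summit of its start peak in the control library (95% exact Poisson interval 41.4 to 71.6). The knockdown library had 28 reads there, or 32.7 at control depth (21.7 to 47.2), a depth-scaled ratio of 0.594. That was the lowest ratio among the 8 genes measured in both lists, and 3.92% of 10619 genes with a start peak in both lists had a lower one. The peak was 2209 bp wide in the control list with a fold enrichment of 14.05, and 751 bp with a fold of 7.28 in the knockdown list. Its summit lay 101 bp (control) and 383 bp (knockdown) downstream of the start. Fold enrichment is the authors' value for the summit over local background within its list. Where folds of both lists are given side by side, they are not a measure of difference between the libraries.

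Near the other end of E2F1, a second peak lay in the flank, with its summit inside the neighbouring gene NECAB3. It came within 1000 bp of the higher-coordinate end of NECAB3 (33675348), whether that is its start or its far end. It had 48 summit reads in the control library and 42 in the knockdown library, 49.0 at control depth. The lists cannot divide this Pol II between E2F1 and NECAB3. Inside E2F1, 2 weak control peaks of 16 and 14 summit reads, the first also within 1000 bp of that end of NECAB3, had no knockdown counterpart. Over the whole E2F1 region, peaks covered 4616 bp (22.1%) in the control and 1491 bp (7.13%) in the knockdown. The flank peak at NECAB3 made up 1592 bp and 740 bp of these.

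E2F2 (chromosome 1, 23505212 to 23531233, minus strand) had a single control peak, 840 bp wide, with 26 summit reads (17.0 to 38.1), a fold of 6.77 and its summit 364 bp downstream of the start. No knockdown peak lay in the region, and the nearest was 20961 bp from the gene. At the depth of the knockdown library, 26 reads correspond to 22.3. The lowest summit in the knockdown list held 8 reads, but the reads needed for a peak rise with the local background. At the E2F2 control peak that background was 2.99 reads, against a lowest of 1.14 in the control list. Of 6721 control peaks with 0.8 to 1.25 times as many summit reads, 81.0% overlapped a knockdown peak, so most peaks of this height were found in both lists.

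E2F3 (chromosome 6, 20401879 to 20493714, plus strand) had a wide start peak in both lists, of 3056 and 2579 bp. Its summit held 51 reads in the control library (38.0 to 67.1) and 32 in the knockdown library, 37.3 at control depth (25.5 to 52.7), a ratio of 0.732. The control summit lay 121 bp and the knockdown summit 695 bp downstream of the outer annotated start. The table gives a further E2F3 start 1735 bp downstream of it, and a control peak with 19 reads and a summit 769 bp past that start had no separate knockdown peak, the nearest ending 184 bp away. The start peak also covered an end of LOC124901482, an overlapping gene listed as protein-coding, and the lists cannot divide Pol II between these genes.

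Of the atypical E2F genes, E2F7 (chromosome 12, 77021251 to 77065569, minus strand) had the second highest start summit of the set in both libraries. It held 65 reads in the control library (50.2 to 82.8) and 44 in the knockdown library, 51.3 at control depth (37.3 to 68.9), a ratio of 0.790. Within the lists, 3.33% (control) and 6.23% (knockdown) of peaks had a higher −log10 p. The summit lay 125 bp (control) and 297 bp (knockdown) upstream of the start, and the peak was 4791 bp wide in the control and 2011 bp in the knockdown.

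Inside E2F7 the lists differed in place. Both had small peaks with summits 3801 to 6186 bp inside the start, with 13 to 20 summit reads in the control library and 10 to 15 in the knockdown library. The knockdown list also had a peak of 1224 bp at 77031563 to 77032786, with 20 reads and a fold of 10.3, and another of 247 bp with 12 reads at 77049776. The nearest control peaks lay 13613 and 7299 bp from these. In turn, the control list alone had a 10-read peak in the flank beyond the other end of the gene and a 9-read peak inside it. E2F7 was the 1 gene of the set with more knockdown than control peaks (7 against 6). The control list had more in 5 of the 10 genes (E2F1, E2F2, E2F3, E2F8 and CDK6), against 43.4% of all genes with a peak.

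E2F8 (chromosome 11, 19224063 to 19241655) had a single control peak at its higher-coordinate end, 938 bp wide, with 22 summit reads (13.8 to 33.3) and a fold of 7.54. The nearest knockdown peak lay 106219 bp from the gene. Scaled to the knockdown depth its 22 reads correspond to 18.9, and of 8329 control peaks with 0.8 to 1.25 times as many reads 65.6% overlapped a knockdown peak. By reads, E2F8 had the weakest and E2F2 the third weakest of the 10 control start peaks, with CCNE2 (24 reads) between them. CSRP3-AS1, a noncoding gene, overlaps E2F8 throughout.

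By the summit reads of their start peaks, the cyclin E genes were the most alike in the 2 libraries, with a limit for CCNE2 given below. At CCNE1 (chromosome 19, 29811991 to 29824312, plus strand) the only peak lay on the start, with 46 summit reads in the control library (33.7 to 61.4) and 42 in the knockdown library, 49.0 at control depth (35.3 to 66.3). The ratio of 1.07, which is above 1 only after depth scaling, was the highest of the set, and 76.2% of genes had a lower one. The summits lay 3 bp upstream (control) and 91 bp downstream (knockdown) of the start, and the fold was 15.7 and 13.3. The peak was narrower in the knockdown list (1686 against 2489 bp).

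At CCNE2 (chromosome 8, 94880224 to 94896693) the only peak lay at the higher-coordinate end, with 24 summit reads in the control library (15.4 to 35.7) and 20 in the knockdown library, 23.3 at control depth (14.3 to 36.0). It was the 1 region of the 10 with more cover in the knockdown list, 2278 bp against 2224 bp. The summits lay 1416 bp (control) and 615 bp (knockdown) inside the gene. NDUFAF6 starts or ends under the same peak, and the lists cannot divide Pol II between the genes.

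CCND1 (chromosome 11, 69641156 to 69654474), which encodes cyclin D1, had the highest start summit of the set in both libraries. The peak at its lower-coordinate end held 80 reads in the control library (63.4 to 99.6) and 55 in the knockdown library, 64.2 at control depth (48.4 to 83.5), a ratio of 0.802. A higher −log10 p was given to 2.08% (control) and 4.33% (knockdown) of peaks. The summits lay 100 bp and 54 bp inside the gene, on peaks of 6542 and 5071 bp.

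Pol II peaks were spread along CCND1, with gaps, in both libraries. They covered 14004 bp of the region (60.1%) in the control and 11748 bp (50.4%) in the knockdown, the largest share of any of the 10 regions in each. All 7 knockdown peaks overlapped a control peak, against 82.8% of all knockdown peaks. Of the 7 control peaks, 5 overlapped a knockdown peak, against 54.2% of all control peaks. At the far end, a peak with its summit 690 bp (control) or 1055 bp (knockdown) past the gene held 27 and 22 reads, 25.7 at control depth. That peak also lay within 1000 bp of an end of LOC124902704, a gene listed as protein-coding.

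CDK6 (chromosome 7, 92604921 to 92836573, minus strand), the kinase partner of the D-type cyclins, had the largest difference in covered length. Its region held 16 control peaks over 17408 bp and 8 knockdown peaks over 7507 bp. At the start, the control library had 45 summit reads (32.8 to 60.2), 79 bp upstream, and the knockdown library 30, 35.0 at control depth (23.6 to 49.98), 5 bp upstream, a ratio of 0.778.

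The start of CDK6 differed in shape. The control list had 1 peak of 4907 bp that spanned both annotated starts, with its summit at the outer one. The knockdown list had 2 peaks in the same stretch, of 2025 bp at the outer start and of 1951 bp at the inner start, 2614 bp further in. The summit of the inner peak lay 5 bp upstream of the inner start and held 26 reads, with a fold of 12.6. The outer peak of the same list held more reads (30) but had a lower fold (8.28). Its local background was higher, at 2.67 reads against 1.07. The control list gives 1 summit per peak, so the reads of the control library at the inner start are not known.

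More than 5000 bp from either end of CDK6 lay 14 control peaks (11425 bp, 9 to 27 summit reads) and 5 knockdown peaks (3079 bp, 12 to 17 summit reads). Of these 14, 4 overlapped a knockdown peak, and of the 5, 3 overlapped a control peak. Over all peaks, of any height, 54.2% of control and 82.8% of knockdown peaks overlapped a peak of the other list. A group of 5 control peaks between 92631550 and 92635513 had 2 knockdown peaks in its place. The widest interior control peak, 3010 bp from 92750950 with 24 reads, lay 9711 bp from the nearest knockdown peak. CDK6-AS1, a noncoding gene, overlaps the outer start, and LOC112268009, another, overlaps the knockdown peak at 92641713.

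RB1 (chromosome 13, 48303751 to 48481890, plus strand), whose protein restrains the E2F factors, was the plainest of the set. Its only peak lay on the start, 4 bp (control) and 43 bp (knockdown) upstream of it at the summit. The summit held 38 reads in the control library (26.9 to 52.2) and 30 in the knockdown library, 35.0 at control depth (23.6 to 49.98), a ratio of 0.921. Peaks covered 0.859% and 0.630% of the region, the smallest control share of the 10 genes, and no peak lay elsewhere in the gene in either list. RB1-DT, a divergent noncoding gene, ends 49 bp from the start of RB1 and lies under the same peak.

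**Figure D2:**
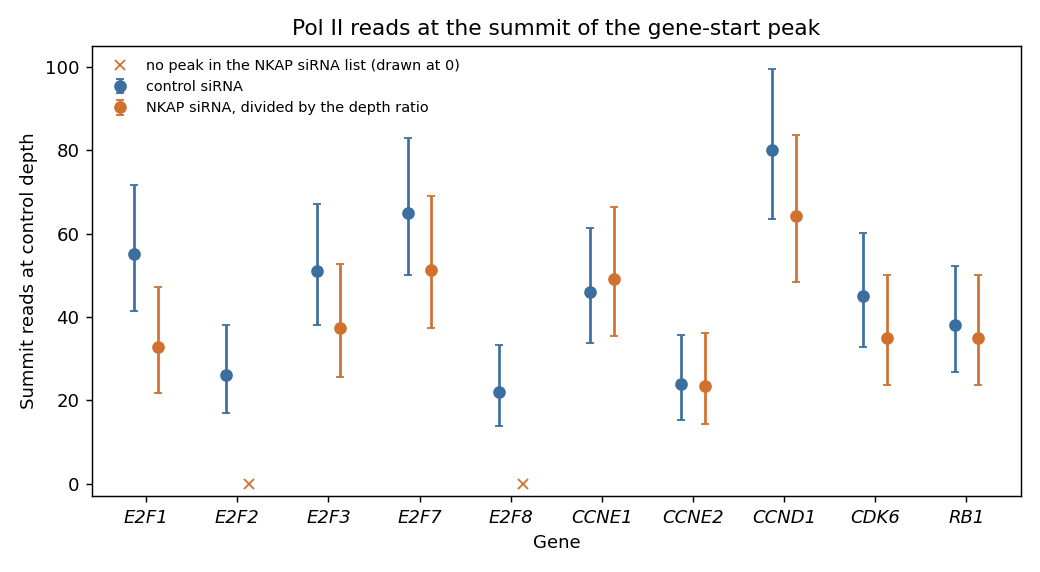
Reads at the summit of the start peak of each gene (y axis, at control depth) in the control library (blue) and the knockdown library (orange, divided by 0.857), with 95% exact Poisson intervals for counting error; crosses mark genes with no knockdown peak and are not counts of 0. The orange point is the lower one in 7 of 8 genes, and the intervals overlap in all 8.

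Across the 8 genes with a start peak in both lists, the knockdown summit was lower at control depth in 7, and CCNE1 was the exception. Among all 10619 such genes it was lower in 67.1%, with a median ratio of 0.901 (quartiles 0.778 and 1.05), against a median of 0.796 over the 8. Of the 8, 3 lay at or above 0.901. Over the 9154 genes with at least as many control start reads as the weakest start peak of the set, the median was 0.880. In order of control reads the genes ran CCND1, E2F7, E2F1, E2F3, CCNE1, CDK6, RB1, E2F2, CCNE2 and E2F8. The Poisson intervals of each neighbouring pair in that order overlapped, and those of the 2 libraries overlapped at each of the 8 genes. The intervals cover counting error only, and reads without molecular identifiers are not independent molecules.

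Covered length was lower in the knockdown list in 9 of the 10 regions, where 86.1% of all genes with any cover had less. It was at most 50% of the control length in 4 regions (E2F1, E2F2, E2F8 and CDK6), against 29.1% of all genes with control cover. In sum the 10 regions went from 55960 to 33457 bp, a ratio of 0.598, against 0.627 for the summed regions of all genes. Beside these sums, the median fold of the peaks was 6.62 in the control and 7.05 in the knockdown, and the median width 804.5 and 855 bp. CDK6, CCND1 and E2F7 held 71.1% of the control length, and without CDK6 the ratio was 0.673. The median ratio per gene was 0.636 for the 10 genes and 0.652 for all 13998 genes with control cover.

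**Figure D3:**
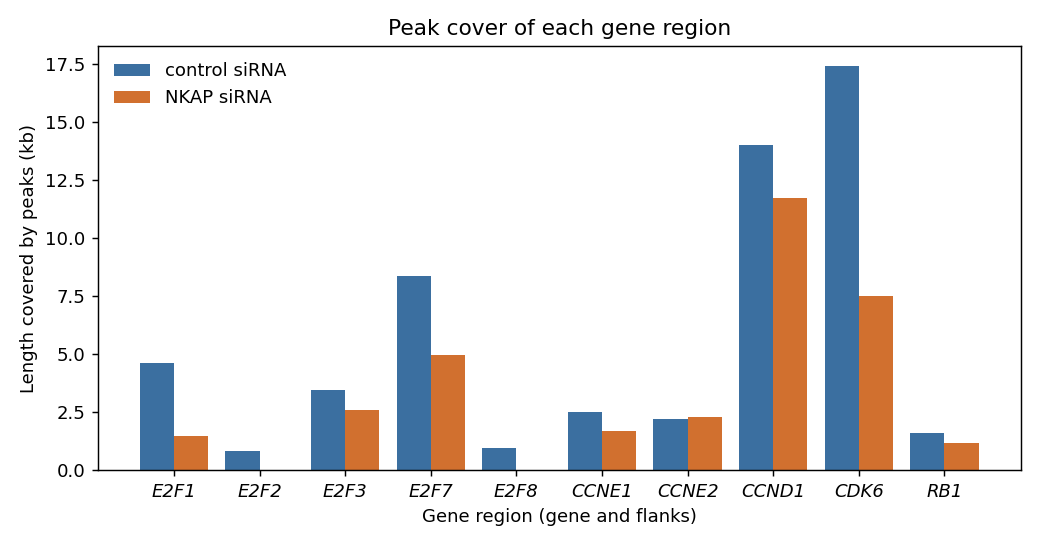
Length covered by peaks (kb, y axis) in each gene region in the control list (blue) and the knockdown list (orange), 1 library each. CDK6 has the widest gap (17408 and 7507 bp), CCND1 the second highest control bar (14004 bp), and CCNE2 is the 1 gene with the taller orange bar.

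By their medians, peaks found in 1 list were weaker and narrower than shared ones. Of the 40 control peaks, 21 (52.5%, 95% exact binomial interval 36.1 to 68.5) overlapped a knockdown peak by at least 1 bp, against 54.2% of all control peaks. These 21 had a median of 26 summit reads and a median width of 1732 bp, while the 19 others had 13 reads and 560 bp. Of the 28 knockdown peaks, 24 (85.7%, 67.3 to 96.0) overlapped a control peak, against 82.8% of all knockdown peaks, and the 4 others lay inside E2F7 and CDK6 with 12 to 20 reads. By summit reads, the highest control peak with no knockdown counterpart was the start peak of E2F2 (26), and by fold it was the inner E2F3 peak (9.34).

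The wider G1/S machinery, given by a list of 33 further genes, had peaks nearly throughout. A peak lay in the region of 32 genes in the control and of 31 in the knockdown, against 70.1% and 66.5% of all protein-coding genes. Cover was lower in the knockdown list for 31 of the 32, against 86.1% of all genes with any cover. It was higher for RBL2, which encodes the RB-related protein p130 (1178 and 1397 bp). The median cover ratio of these 32 genes was 0.543, against 0.652 for all genes with control cover. The median start ratio over 31 genes was 0.841, against 0.901 for all genes with a start peak in both lists. TFDP2, a dimerisation partner of E2F factors, was the 1 gene with peaks in the control list only (2 peaks, 921 bp, 18 start reads). CDKN2A, which encodes the inhibitors p16 and ARF, had no peak in either list.

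Peaks in both lists were found for 64.7% of all protein-coding genes. Among the E2F and DP factors, 4 of 5 had them, and E2F6, a repressive E2F factor, had a start summit of 67 reads in the control and 51 in the knockdown, not scaled for depth here and for the genes that follow. All 8 pocket proteins and MuvB or MYB partners had peaks in both lists. MYBL2, the B-MYB transcription factor gene, went from 5 peaks over 5278 bp to 1 over 957 bp. Its strongest peak had a fold of 28.8 within the control list and of 10.3 within the knockdown list. LIN9, a MuvB subunit gene, had 1837 and 1729 bp, with 70 and 48 start reads.

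All 7 cyclin and kinase genes had peaks in both lists, and CCND3, the cyclin D3 gene, had 9 peaks in each, over 11668 bp in the control and 6961 bp in the knockdown. Of the 7 CDK inhibitor genes, 6 had peaks in both lists. CDKN1B, which encodes p27, had the largest difference in cover of the 33 genes (10675 and 4775 bp), and its start peak held 76 and 38 reads. CDKN1A, which encodes p21, had 9128 and 8176 bp of cover, but its start peak held 32 reads in the control and 72 in the knockdown, 84.0 at control depth. That start ratio of 2.63 was the highest of the 31 genes. Each start peak is the highest-read peak that touches the start window, and its summit may lie outside that window. Whether both lists give the same peak there was not checked, so the ratio need not be a rise of Pol II at the start itself. In the control, the start peak (fold 4.73) was not the strongest peak of the CDKN1A region (fold 28.6), while in the knockdown it was (fold 16.9). All 6 genes of activation and turnover had peaks in both lists, and FBXO5, the gene of the APC/C inhibitor EMI1, had the highest fold of the 33 genes within the knockdown list (25.03). Its start peak held 110 reads in the control and 53 in the knockdown, a depth-scaled ratio of 0.562, and its cover was 7372 and 3596 bp.

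**Figure D4:**
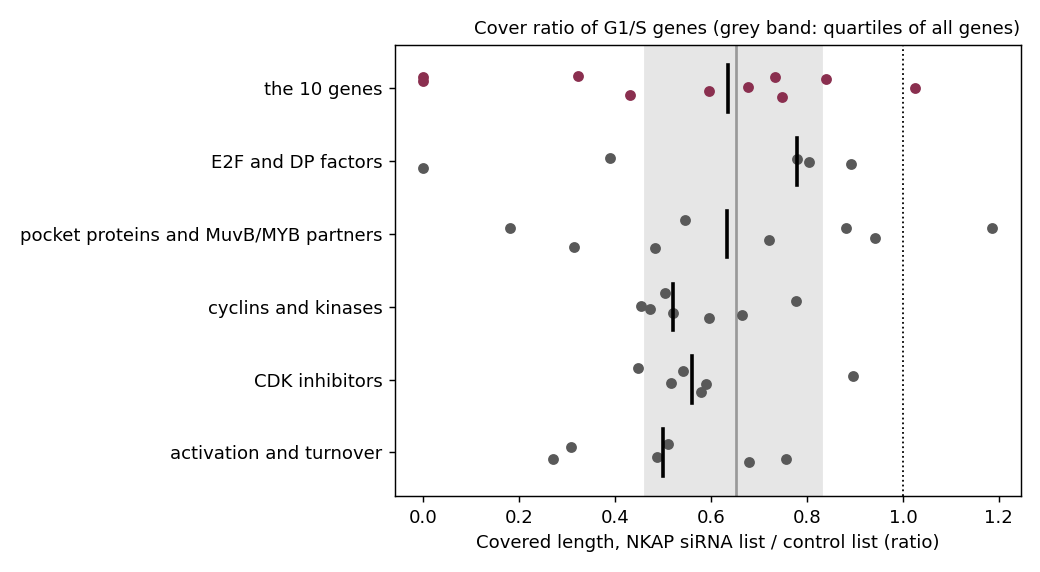
Ratio of covered length in the knockdown list to that in the control list (x axis) for the 10 genes (red) and for 5 groups of further G1/S genes (grey points), with group medians as black bars. The grey band spans the quartiles of all genes with control cover (0.462 to 0.832) and the grey line their median (0.652); the median of the 10 genes is 0.636, and CCNE2 and RBL2 are the 2 points above 1.

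Markers did not set the cell type apart by their counts. Peaks lay in the regions of 6 of 8 mesenchymal and osteosarcoma markers in each list, a share near the 70.1% (control) and 66.5% (knockdown) of all genes, among them VIM, COL1A1 and RUNX2, and COL1A2 and TWIST1 had none. Summed over the 8 markers, peaks covered 44099 bp in the control and 19743 bp in the knockdown, and the part of this in the results above was not tested. For the summed regions of all genes the knockdown to control ratio was 0.627. Of the 8 markers, 5 had less cover in the knockdown, and CD44 had more (3781 and 5714 bp). None of 4 hepatocyte markers had a peak. Of 4 markers each, 3 (control) and 2 (knockdown) epithelial, 2 lymphocyte and 4 neuron markers had peaks in their regions, which can include peaks of neighbouring genes.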

How the data were processed

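Pol II ChIP and input libraries came from U2OS cells fixed with 1% formaldehyde for 10 min, per the labels' protocols. The authors processed reads with bcl2fastq 2.17, Trimmomatic 0.33, Bowtie 1.1.2 and MACS2 2.1.0 on build hg38, per the submitters' processing notes; the caller's settings and background library were not given in the sources read here. The deposited peak lists hold 1 list per ChIP sample. They give a score (10 times the −log10 q-value, without decimals), a fold enrichment ratio, and the −log10 of p-values and q-values, all the authors' values.

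Summit reads were recovered here (Python 3.11.15, SciPy 1.17.1): the caller's fold is (reads + 1)/(background + 1) and its p is a Poisson tail of the reads. Whole reads, within 0.01 of the −log10 p, came out for 100% of peaks in each list, with knockdown reads multiplied by 0.926 by the caller. The recovery was tested on simulated data. The depth ratio, 0.857, is an estimate from each list's lowest background and smallest width (229 and 225 bp). The median summit held 18 reads (control) and 19 (knockdown). Shares are given with exact binomial intervals, and counts with exact Poisson intervals.

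Gene positions came from RefSeq (GRCh38.p14), which gives no exons here, so exon and intron classes were not used; strand came from its promoter table. Peaks on other sequences (5.75% and 5.47%) were left out. Each gene was measured at the highest-read peak touching its start window, whose summit may lie outside it. The 10 genes, the gene lists and the settings were chosen with earlier results of these data known. Named further genes were those with peaks in 1 list or none, the 3 of highest fold in each list, and the 3 at each extreme of the difference in cover (only RBL2 had more in the knockdown). Alternatives were a stricter q-value, equal list lengths, leaving out peaks at other genes, another flank, start window and overlap.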

Additional observations from a re-analysis of the deposited data

How the results depend on the processing

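Of 34 recomputed values, 33 stayed within 1.5 times the reported count or length, or within the interval of the reported share. The other was the share of control peaks overlapped, which was 75% (18 of 24) with equal numbers of strongest peaks (26387 a list), because the weakest control peaks were then left out. None of the 4 alternatives that changed the peaks or the flank could add a knockdown peak, and equal numbers left the knockdown list whole. The absence of a knockdown peak at E2F2 and E2F8 was therefore fixed in advance under all 4. Under each of these 4 alternatives, 9 of 10 regions had less knockdown cover. The summed cover ratio ran from 0.561 to 0.695 over these. Leaving out peaks at an end of another gene also removed the only peak of CCNE2 from both lists and that of E2F3 from the knockdown list. No paired analysis was possible because each group held 1 ChIP library, and for the same reason no library could be left out. Peaks under the authors' threshold are not in the lists, so a difference at a weak peak was not detectable at this depth.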

Other observations

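The following genes of the G1/S list were picked after their values were seen. CDK4, the other kinase partner of the D-type cyclins, had more peaks in the knockdown list (5 against 3) over a shorter length (3950 against 5939 bp), with 29 and 42 start reads in the knockdown and control libraries, not scaled for depth here. CDC25A, the phosphatase gene that activates CDK2, had 3 control peaks over 3578 bp and 1 knockdown peak over 1104 bp. SKP2, a ubiquitin ligase subunit gene that acts on p27, had 27 control and 29 knockdown start reads, but 1377 and 372 bp of cover.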
